A study of Mus musculus with 12 samples.

Results

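The sarcomere is the contractile unit of heart muscle, and 38 genes for its structure and upkeep were followed in mouse hearts. They were taken from a list of symbols matched to the Ensembl identifiers of the deposited table, which holds 26781 genes. All 38 were found, and all 38 were among the 15503 genes that reached 0.5 FPKM (reads or fragments for each kilobase of a gene's exons, corrected for library size) in at least 3 of 12 libraries. RNA came from flash-frozen hearts of C57BL/6J mice, an inbred strain, in 4 groups of 3 libraries each. MI+CIH hearts carried both conditions, MI hearts the first alone, CIH hearts the second alone, and sham hearts neither. MI is read here as myocardial infarction and CIH as chronic intermittent hypoxia, a model of sleep apnoea in which oxygen drops again and again. The labels used here give no age, sex, time after surgery, hypoxia schedule or heart region, and do not say whether the 3 libraries of a group came from separate animals. The p-values therefore measure only the spread between these libraries.

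In each sarcomere, thin filaments of actin slide along thick filaments of myosin. Calcium starts the movement by binding the troponin complex on the thin filament. Titin and the M-band proteins hold the thick filaments in place, and Z-discs anchor the thin filaments and join neighbouring sarcomeres. Chaperones and methyltransferases help to fold and place myosin, ubiquitin ligases mark worn proteins for removal, and creatine kinases and myoglobin supply phosphate energy and oxygen. Many of these genes are active mainly in muscle cells.

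In hearts with both conditions most of the 38 genes had lower mean levels than in the other groups, and the Z-disc genes Pdlim3 and Synpo2l were higher than in hearts with hypoxia alone. A gene is said to rise or fall where limma's test across all 15503 genes gave a Benjamini-Hochberg adjusted p under 0.05. In MI+CIH against CIH hearts 15 of the 38 genes fell and 2 rose (44.7% of the 38), while 28.2% of all genes tested changed, 8.26% falling and 19.9% rising. Against sham hearts 11 fell and 1 rose in MI+CIH (31.6% of the 38), beside 16.8% of all genes, 5.51% falling and 11.3% rising. In MI against sham hearts 1 of the 38 changed, Rbm20, which fell, beside 1.96% of all genes changing and 0.593% falling.

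None of the 38 passed in 3 comparisons. For CIH against sham hearts, where 0.00645% of all genes passed, limma gave an unadjusted p under 0.05 for 2 of the 38 and for 11.8% of all genes. For MI+CIH against MI hearts 0.329% of all genes passed, and the unadjusted p was under 0.05 for 14 of the 38 and for 18.9% of all genes. The interaction is the MI+CIH minus MI difference, less that of CIH minus sham. It passed for 0.0774% of all genes, and its unadjusted p was under 0.05 for 9 of the 38 and for 21.2% of all genes.

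The median log2 change of the 38 genes was -0.48 in MI+CIH against CIH hearts, with 34 below 0, while that of all genes was 0.20. Against sham hearts the median was -0.51 in MI+CIH, with 34 below 0, beside 0.12 for all genes. For MI+CIH against MI hearts it was -0.40, with 31 below 0, beside 0.05. In MI against sham hearts it was -0.13, with 27 below 0, beside 0.06, and in CIH against sham hearts -0.03, with 19 below 0, beside -0.07. The median of the interaction was -0.35, with 31 below 0, beside 0.13. All log2 changes are of FPKM + 0.5. The comparisons share libraries, so they are not independent of one another.

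The balance of higher and lower calls changed with the scaling of the libraries. With median-of-ratios scaling the median of all genes was 0.02 in MI+CIH against CIH and 0 against sham, in place of 0.20 and 0.12, and the medians of the 38 were -0.69 and -0.66. Then 20 fell and 1 rose against CIH, where 1964 of all genes rose and 2240 fell (46.7% of calls rose) in place of 3088 and 1280 (70.7%). Against sham 16 fell and 1 rose, where 1305 rose and 1477 fell (46.9%) in place of 1749 and 854 (67.2%). Over all genes, MI against sham had 170 higher and 118 lower calls (59.0% higher) in place of 212 and 92 (69.7%). MI+CIH against MI had 39 higher and 38 lower calls (50.6% higher) in place of 37 and 14 (72.5%), and the interaction 61 and 94 (39.4%) in place of 11 and 1 (91.7%), so there the lower calls grew in number while the higher ones did not shrink. With the genes of mitochondrial DNA and the RNA gene Rpph1 left out, the calls were 115 higher and 99 lower (53.7%) for MI+CIH against MI and 66 and 23 (74.2%) for the interaction. Every one of the 30 calls among the 38 genes kept its sign under both scalings, but some no longer passed. The call of Rbm20 in MI against sham was lost in both. That of Synpo2l against CIH was lost with median-of-ratios scaling. With the mitochondrial genes and Rpph1 left out, the calls of Smyd1 and Trim55 in MI+CIH against CIH and of Myh7b against sham were lost.

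All 3 MI+CIH libraries lay below all 3 of the other group for 20 of the 38 genes against CIH, where 10.3% of all genes did so. They did so against sham for 20 genes, beside 12.0% of all genes, and against MI for 14 genes, beside 9.19%.

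The third MI+CIH library stood apart. On the first principal component of all genes, with 35.3% of the variance, it scored 71.8, while the other MI+CIH libraries scored 46.1 and 31.6 and the other groups -43.6 to 11.6. It was the lowest of its group for 29 of the 38 genes, and the second MI+CIH library was the highest for 22. Relative to the sham mean, the median of the 38 genes was -0.43, -0.23 and -0.78 on the log2 scale in MI+CIH libraries 1 to 3. The median SD of the 38 genes was 0.32 on the log2 scale in MI+CIH, 0.15 in MI, 0.20 in CIH and 0.15 in sham.

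Single libraries moved the counts. For MI+CIH against CIH 11 genes passed without CIH 3 and 10 without MI+CIH 3. Over all genes, 2989 and 2755 then passed in place of 4368. For MI+CIH against sham 3 passed without sham 1, 4 without sham 2, 5 without sham 3 and 7 without MI 1. The count was 7 without MI 3, 3 without MI+CIH 3 and 20 without MI+CIH 2. In the same order, 979, 1364, 1650, 2204, 2189, 1220 and 2972 of all genes passed in place of 2603. For MI against sham none passed without sham 1, sham 2, MI 1, MI 2, MI 3, CIH 2 or CIH 3, and 3 passed without MI+CIH 3. Over all genes, 30, 27, 140, 30, 22, 322, 260 and 485 then passed in that order, in place of 304. Leaving out MI+CIH 2 made 7 genes pass in MI+CIH against MI and 7 in the interaction, which were Tnni3, Tnnc1, Actc1, Myl3, Smyd1, Unc45b and Ckm in each. Over all genes, 993 and 976 then passed. Values without MI+CIH 3 are given below with each group of genes.

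**Figure D1:**
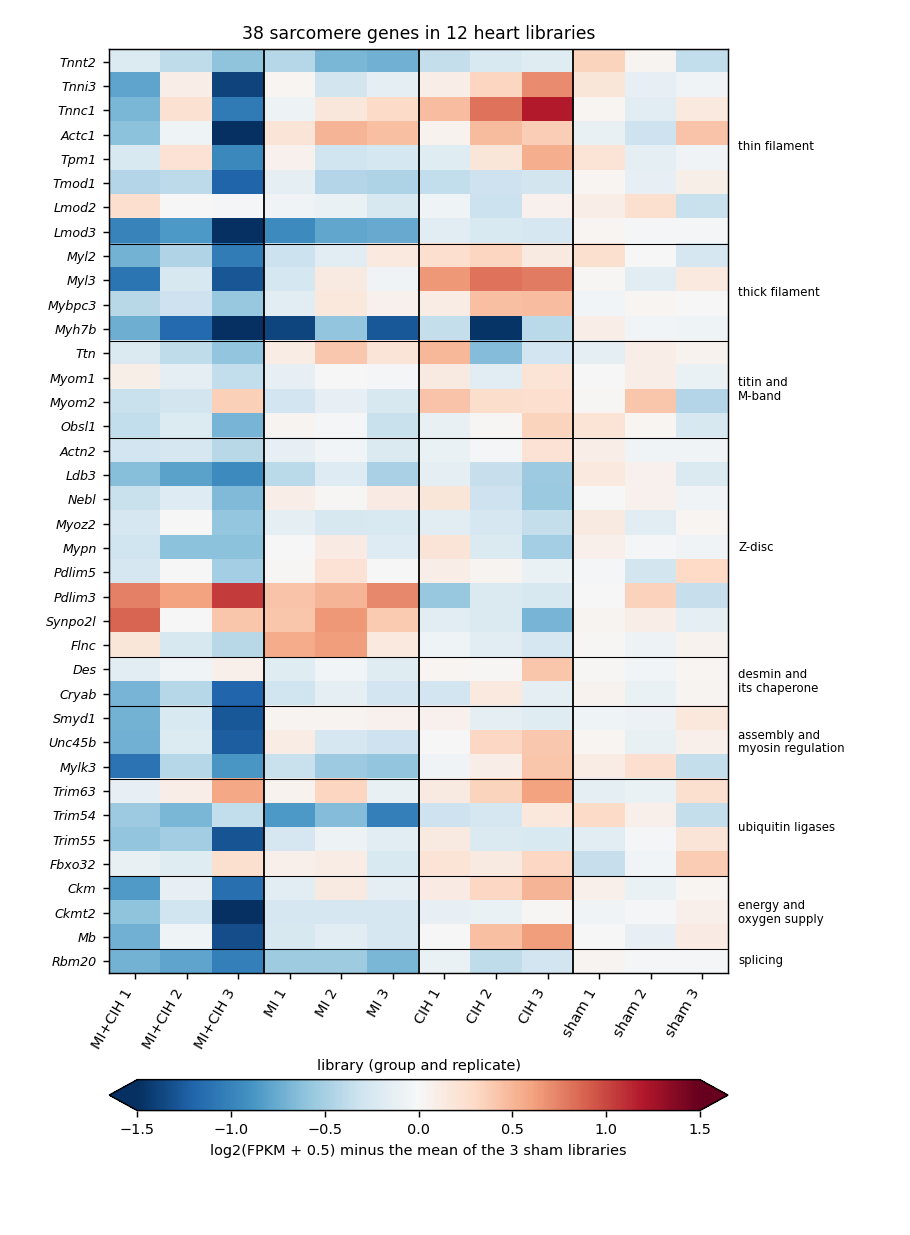
Each row is 1 of the 38 genes, grouped by role, and each column 1 library. Colour is log2(FPKM + 0.5) minus the mean of the 3 sham libraries. The MI+CIH columns are mostly blue, the third most of all, with Pdlim3 red in all 3 and Lmod3, Myh7b and Rbm20 blue in MI as well.

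Depth, worked out from the spacing of low FPKM values, was 26.06 to 33.42 M reads a library, and the fewest reads worked out for any of the 38 genes in a library were 460, for Lmod3. Together the 38 took 5.25 to 9.44% of all FPKM in MI+CIH libraries, 9.19 to 10.1% in MI hearts, 10.2 to 13.5% in CIH hearts and 9.65 to 10.4% in sham hearts. The labelled tissue was checked with 6 heart muscle genes outside the list (Myh6, Ryr2, Pln, Atp2a2, Slc8a1 and Cacna1c), none of which was at 0 in any library. Their summed level was 2288 to 5786 FPKM in MI+CIH, 5691 to 7199 in MI hearts, 6754 to 8271 in CIH hearts and 7100 to 8930 in sham hearts. The lowest value was that of MI+CIH 3, while MI+CIH 1 and 2, at 5695 and 5786, overlapped MI. Of the 6 genes, 3 fell in MI+CIH against CIH and 4 in MI+CIH against sham, beside 8.26% and 5.51% of all genes. Myh6, the largest part of each sum, and Slc8a1 passed in no comparison.

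Markers of other cells differed too. Counts of markers that passed stand beside 19.9% of all genes rising and 8.26% falling in MI+CIH against CIH. Against sham these shares were 11.3% and 5.51%. The 8 fibroblast markers summed to 853 to 1729 FPKM in MI+CIH, 566 to 932 in MI hearts, 208 to 387 in CIH hearts and 233 to 289 in sham hearts, and the 8 macrophage markers to 542 to 918, 340 to 464, 151 to 375 and 210 to 327 in the same order. In MI+CIH 7 and 8 of these rose against CIH, and 7 and 6 against sham, and none was at 0 in any library. The 6 airway and lung markers summed to 311 to 3480 FPKM in MI+CIH, 0.0425 to 2.05 in MI hearts, 0.666 to 16.7 in CIH hearts and 1.51 to 542 in sham hearts, the last value in sham 2. Of 5 tested, 4 rose in MI+CIH against CIH and 4 against sham, and Sftpb and Reg3g were at 0 in 6 libraries each. The 6 fat cell markers summed to 483 to 1004 FPKM in MI+CIH, 209 to 583 in MI hearts, 11.0 to 42.5 in CIH hearts and 30.9 to 270 in sham hearts. Of 5 tested, 5 rose in MI+CIH against CIH and 4 against sham.

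The 10 fast skeletal muscle markers summed to 17.2 to 85.5 FPKM in MI+CIH, 5.16 to 216 in MI hearts, 3.17 to 4.78 in CIH hearts and 4.44 to 6.97 in sham hearts, with the high MI value in MI 2. Of these 10, 3 rose in MI+CIH against CIH and 2 against sham, near the 19.9% and 11.3% of all genes. All 10 were above 0 in both comparisons, with median log2 changes of 2.51 and 2.28, beside 0.20 and 0.12 for all genes. Myh4 was at 0 in 5 libraries. The 7 atrial markers summed to 4342 to 5327 FPKM in MI+CIH, 2500 to 4361 in MI hearts, 368 to 2291 in CIH hearts and 1774 to 2902 in sham hearts. Most of the MI+CIH sums was 1 gene, Nppa, at 4004, 2995 and 4787 FPKM. In MI+CIH against sham 3 of the 7 were above 0 and 4 below, with a median log2 change of -0.02. Against CIH 6 were above 0 and 1 below, with a median of 1.53. Of these 7, 1 rose in MI+CIH against CIH, a smaller share than that of all genes. In MI+CIH against CIH 4 of 7 smooth muscle and pericyte markers rose and 1 fell, 1 of 6 endothelial markers fell, and 1 of 5 red cell markers fell. Against sham 1 smooth muscle marker rose and 4 red cell markers fell. The part of these other cells in the results that follow was not tested. In RNA from whole tissue, fewer heart muscle cells and less RNA per heart muscle cell cannot be told apart.

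Promoters of 5 genes that changed in MI+CIH against CIH hearts are shown: Pdlim3 and Synpo2l are the 2 that rose, and Actc1, Myl3 and Mybpc3 are among the 15 that fell and hold a match to a muscle factor's motif. They were chosen after their values were seen, and the call of Actc1 was lost in 16 of 22 alternative settings. Each line gives the 250 bases before the gene's start, 5′ to 3′ on the gene's own strand, from RefSeq on GRCm38.p6. Capitals mark matches to the consensus of MEF2, a family of muscle transcription factors, or to the CArG box, the site of serum response factor.
Actc1: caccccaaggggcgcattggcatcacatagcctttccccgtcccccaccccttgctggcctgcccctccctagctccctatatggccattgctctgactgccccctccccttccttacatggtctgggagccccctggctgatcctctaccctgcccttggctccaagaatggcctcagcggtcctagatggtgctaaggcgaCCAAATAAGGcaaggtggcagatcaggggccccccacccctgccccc
Myl3: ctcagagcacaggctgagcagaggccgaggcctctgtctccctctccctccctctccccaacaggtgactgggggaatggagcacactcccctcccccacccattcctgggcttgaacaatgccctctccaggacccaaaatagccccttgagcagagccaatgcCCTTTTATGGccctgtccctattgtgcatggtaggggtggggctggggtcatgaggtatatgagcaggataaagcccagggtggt
Mybpc3: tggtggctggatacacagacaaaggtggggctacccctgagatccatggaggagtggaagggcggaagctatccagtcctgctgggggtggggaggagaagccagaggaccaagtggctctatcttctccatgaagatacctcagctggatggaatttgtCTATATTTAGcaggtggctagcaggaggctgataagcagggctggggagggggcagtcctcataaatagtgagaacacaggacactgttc
Pdlim3: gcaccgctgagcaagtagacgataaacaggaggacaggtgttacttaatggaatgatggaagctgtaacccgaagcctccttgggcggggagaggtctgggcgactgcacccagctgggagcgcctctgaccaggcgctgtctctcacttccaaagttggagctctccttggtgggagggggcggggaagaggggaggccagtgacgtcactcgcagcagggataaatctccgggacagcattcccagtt
Synpo2l: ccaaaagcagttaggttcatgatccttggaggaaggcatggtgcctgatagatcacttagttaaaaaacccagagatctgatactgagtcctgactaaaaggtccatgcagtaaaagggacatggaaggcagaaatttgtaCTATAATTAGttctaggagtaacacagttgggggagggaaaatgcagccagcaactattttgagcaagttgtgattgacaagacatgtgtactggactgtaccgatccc
These lie at chr2:114052876-114053125 (minus strand), chr9:110763428-110763677 (plus), chr2:91117894-91118143 (plus), chr8:45885237-45885486 (plus) and chr14:20668355-20668604 (minus). Synpo2l has 2 annotated starts, and the first listed is shown. The RefSeq starts of Myl3 and Pdlim3 lie inside the longer gene bounds of GENCODE M21 given below.

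The CArG box matches lay 47 to 38 bases before the start in Actc1 and 85 to 76 in Myl3. The MEF2 matches lay 90 to 81 bases before the start in Mybpc3 and 109 to 100 in Synpo2l. In the Pdlim3 window neither set of letters was found. Promoter windows, from 250 bases before to 50 after a start, were matched by symbol for 32 of the 38 genes, with 44 windows among them. Both strands were searched.

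Of the 44 windows, 5 held the MEF2 consensus (11.4%), against 3.19% of 32851 mouse windows, and 6 held a CArG box (13.6%), against 1.63%. By gene, 5 of the 32 held a CArG box (Actc1, Ldb3, Myl3, Myom1 and Nebl). The MEF2 consensus was in 4 (Mybpc3, Myoz2, Synpo2l and Ttn). Ldb3 and Synpo2l each count with more than 1 window. The TATA motif TATAAA was in 6 windows (13.6%), against 13.62% of all, and the E-box CANNTG in 35 (79.5%), against 72.31%. The FOXO motif TGTTTAC was in 1 window (2.3%), that of Trim63, against 3.65%. Of the genes with a window that fell in MI+CIH against CIH, only Actc1, Myl3 and Mybpc3 held a MEF2 or CArG match. Ldb3, Myom1, Nebl, Myoz2 and Ttn held one and did not pass in that comparison. A match describes the letters only.

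Thin filament genes had lower levels in MI+CIH hearts, among them 2 of the 3 troponin genes. Against CIH 7 of 8 were below 0 on the log2 scale and 4 fell (Tnni3, Tnnc1, Actc1 and Lmod3). Against sham 2 fell (Tmod1 and Lmod3). These calls stand beside 8.26% and 5.51% of all genes falling. Tnnc1, the calcium-binding troponin C of heart and slow muscle, had 1419, 2672 and 1093 FPKM in MI+CIH, 2161, 2554 and 2776 in MI, 3132, 3988 and 5169 in CIH and 2315, 2016 and 2523 in sham. Every MI+CIH library lay below every CIH library, while MI+CIH overlapped MI and sham. The log2 change was -1.32 (SE 0.32, adjusted p = 0.0113) in MI+CIH against CIH, -0.50 (SE 0.32, adjusted p = 0.298) against sham and, in CIH against sham, 0.82 (SE 0.32, adjusted p = 0.362). Tnni3, the inhibitory troponin I of the adult heart, had 1261, 2330 and 836 FPKM in MI+CIH, 2224, 1801 and 1968 in MI, 2329, 2724 and 3572 in CIH and 2474, 2003 and 2097 in sham. MI+CIH 2 lay just above the lowest CIH library, so those groups overlapped. Its log2 change in MI+CIH against CIH was -1.07 (SE 0.33, adjusted p = 0.0318).

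Tnnt2, which encodes the troponin T that ties the complex to tropomyosin, is given beside them, chosen after its values were seen. Its levels were 1441, 1282 and 1098 FPKM in MI+CIH, 1236, 1037 and 1009 in MI, 1302, 1422 and 1468 in CIH and 2095, 1713 and 1285 in sham. The groups MI+CIH and CIH overlapped, with a log2 change of -0.14 (95% interval -0.61 to 0.33, adjusted p = 0.657). Within a library, the log2 ratio of Tnnc1 to Tnnt2 was -0.02 to 1.06 in MI+CIH, 0.81 to 1.46 in MI hearts, 1.27 to 1.82 in CIH hearts and 0.14 to 0.97 in sham hearts. Tnni3 to Tnnt2 was -0.39 to 0.86 in MI+CIH, 0.80 to 0.96 in MI hearts, 0.84 to 1.28 in CIH hearts and 0.23 to 0.71 in sham hearts. The troponin C ratio was lower in every MI+CIH library than in every CIH library. These ratios, and those below, were chosen after values were seen and carry no test.

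Actc1, the cardiac actin of the filament itself, had 1681, 2454 and 665 FPKM in MI+CIH, 2951, 3665 and 3524 in MI, 2672, 3579 and 3324 in CIH and 2388, 2073 and 3456 in sham. Every MI+CIH library lay below every CIH and MI library but not below sham. The change was -1.18 (SE 0.40, adjusted p = 0.0477) in MI+CIH against CIH. Actc1 and the skeletal actin gene Acta1 are near-identical in sequence, so reads may have been split between them.

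Of genes at the filament's pointed end, Lmod3 fell against both CIH and sham, and Tmod1 against sham only. Lmod2, given below, passed in no comparison. Lmod3, a leiomodin that nucleates actin filaments, had 20.1, 22.4 and 7.41 FPKM in MI+CIH, 20.8, 23.7 and 24.0 in MI, 36.6, 34.9 and 34.4 in CIH and 41.9, 40.4 and 40.5 in sham. All MI+CIH and MI libraries lay below all CIH and sham libraries. Its log2 change was -1.21 (SE 0.31, adjusted p = 0.0147) in MI+CIH against CIH, -1.42 (SE 0.31, adjusted p = 0.0124) against sham and, in MI against sham, -0.83 (SE 0.31, adjusted p = 0.205). Tmod1, tropomodulin, caps the pointed end and had 73.7, 76.4 and 43.4 FPKM in MI+CIH, 90.5, 74.2 and 72.5 in MI, 77.9, 80.7 and 82.6 in CIH and 103, 92.1 and 107 in sham. The MI+CIH libraries lay below the sham and CIH libraries and overlapped MI, with a log2 change of -0.68 (SE 0.20, adjusted p = 0.0404) against sham. Against CIH the change of Tmod1 was -0.36 (SE 0.20, limma adjusted p = 0.204). Of the exon bases of Tmod1, 32.6% overlap Tstd2 on the other strand, and the strand setting of the counting is not given, so its value is uncertain.

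The remaining thin filament genes, Tpm1 (tropomyosin) and Lmod2 (the other leiomodin of the heart), passed in no comparison. Lmod2 had a log2 change of 0.18 (95% interval -0.24 to 0.61, adjusted p = 0.509) in MI+CIH against CIH, and Tpm1 of -0.51 (95% interval -1.17 to 0.16, adjusted p = 0.231). Leaving out MI+CIH 3, the MI+CIH against CIH change was -1.04 (adjusted p = 0.0399) for Tnnc1, -0.72 (adjusted p = 0.00632) for Lmod3, -0.72 (adjusted p = 0.104) for Tnni3 and -0.64 (adjusted p = 0.13) for Actc1. Against sham it was then -0.93 (adjusted p = 0.00578) for Lmod3 and -0.42 (adjusted p = 0.1) for Tmod1. Of the 22 settings, the call against CIH was lost in 16 for Actc1, 8 for Tnni3, 3 for Tnnc1 and 1 for Lmod3, and that against sham in 14 for Tmod1 and 1 for Lmod3. Both calls of Lmod3 were lost in the fit of the 2 compared groups alone, which takes its spread from those libraries only. All other calls named here were lost in that fit too.

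Of the 4 thick filament genes, 3 fell in MI+CIH against CIH (Myl2, Myl3 and Mybpc3) and 3 against sham (Myl2, Myl3 and Myh7b). Of all genes, 8.26% and 5.51% fell in these comparisons. The heavy chain genes Myh6 and Myh7, which are outside the 38, passed in no comparison. Myl3, the essential light chain of ventricular myosin (ENSMUSG00000059741, chr9:110741861-110769798, plus strand, GRCm38), had 470, 849 and 413 FPKM in MI+CIH, 837, 1102 and 969 in MI, 1570, 1759 and 1722 in CIH and 1015, 897 and 1107 in sham. Every MI+CIH library lay below every CIH and sham library, and every CIH library above all others. On the log2 scale the change was -1.62 (SE 0.26, adjusted p = 0.00238) in MI+CIH against CIH, -0.87 (SE 0.26, adjusted p = 0.0385) against sham and 0.75 (SE 0.26, adjusted p = 0.324) in CIH against sham. Its interaction had the smallest p of the 38 genes, -1.56 (SE 0.36, adjusted p = 0.0705), followed by Mybpc3 with -0.79 (SE 0.24, adjusted p = 0.104) and Tnnc1 with -1.45 (SE 0.45, adjusted p = 0.108). None of these 3 passed.

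Myl2, the regulatory light chain of ventricular myosin, had 847, 1014 and 670 FPKM in MI+CIH, 1103, 1231 and 1530 in MI, 1646, 1728 and 1523 in CIH and 1637, 1393 and 1159 in sham. Every MI+CIH library lay below every library of the other groups. The log2 change came to -0.97 (SE 0.22, adjusted p = 0.00891) in MI+CIH against CIH and -0.73 (SE 0.22, adjusted p = 0.0417) against sham. Mybpc3, the cardiac myosin-binding protein C that tunes cross-bridge cycling, had 473, 508 and 426 FPKM in MI+CIH, 561, 703 and 661 in MI, 683, 864 and 867 in CIH and 615, 643 and 635 in sham. It too was lower in every MI+CIH library than in all others, with a log2 change of -0.77 (SE 0.17, adjusted p = 0.00818) against CIH and -0.43 (SE 0.17, adjusted p = 0.105) against sham.

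Myh7b, a slow-type myosin heavy chain gene with low levels in heart, had 13.9, 10.2 and 3.95 FPKM in MI+CIH, 8.76, 15.4 and 9.48 in MI, 18.3, 8.18 and 17.6 in CIH and 25.3, 22.8 and 22.5 in sham. All 3 sham libraries lay above all 9 others. Its log2 change was -1.45 (SE 0.42, adjusted p = 0.0396) in MI+CIH against sham and -1.08 (SE 0.42, adjusted p = 0.232) in MI against sham. Without MI+CIH 3, the changes against CIH were -1.41 (adjusted p = 0.00759) for Myl3, -0.81 (adjusted p = 0.0302) for Myl2 and -0.71 (adjusted p = 0.0252) for Mybpc3. Against sham they were then -0.67 (adjusted p = 0.128), -0.58 (adjusted p = 0.128) and -0.95 (adjusted p = 0.107) for Myl3, Myl2 and Myh7b. Of the 22 settings, the call against CIH was lost in 0 for Myl3, 1 for Myl2 and 1 for Mybpc3, and that against sham in 15 for Myl3, 15 for Myl2 and 12 for Myh7b. For Myl2 and Mybpc3 against CIH the setting was the fit of the 2 groups alone.

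**Figure D2:**
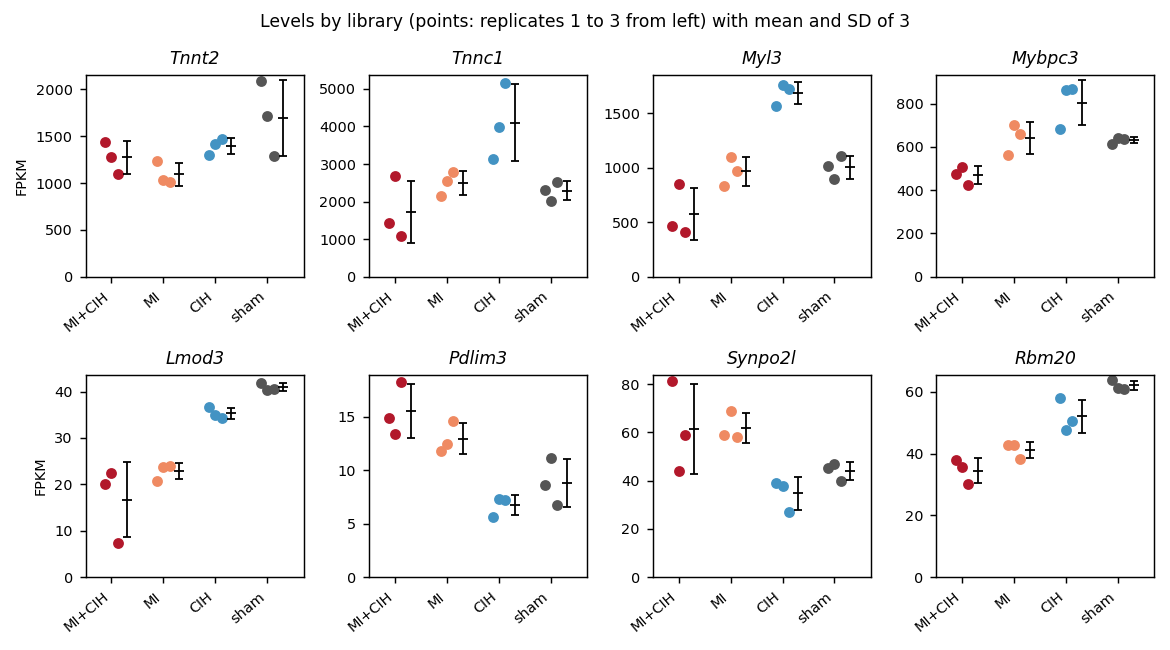
FPKM of 8 genes, with 1 point per library and the mean and SD of 3 beside each group, groups from left MI+CIH, MI, CIH and sham. Myl3 is lowest in MI+CIH and highest in CIH, Pdlim3 is higher in both infarcted groups, and Rbm20 forms 4 separate steps.

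Titin and the M-band genes did not pass in any comparison (4 of 4). Ttn, the giant spring that runs from Z-disc to M-band, had 287, 256 and 222 FPKM in MI+CIH, 362, 443 and 382 in MI, 472, 212 and 274 in CIH and 301, 358 and 346 in sham. Its MI+CIH libraries lay below all MI and sham libraries but within the range of CIH, whose first library was the highest of all. The log2 change was -0.64 (95% interval -1.19 to -0.08, adjusted p = 0.206) in MI+CIH against MI and -0.25 (95% interval -0.81 to 0.31, adjusted p = 0.487) against CIH. Myom1, myomesin, links thick filaments at the M-band and had 350, 300 and 254 FPKM in MI+CIH, 303, 327 and 321 in MI, 362, 292 and 379 in CIH and 328, 352 and 308 in sham. Its groups overlapped, with a log2 change of -0.20 (95% interval -0.57 to 0.17, adjusted p = 0.41) in MI+CIH against CIH. Myom2, a second myomesin, and Obsl1, an obscurin-like linker, had changes of -0.40 and -0.51 in that comparison. One value per gene does not show which titin isoforms were made.

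Z-disc genes went both ways in MI+CIH hearts: Pdlim3 and Synpo2l rose against CIH, Pdlim3 also against sham, and Ldb3 fell against sham, among 9 genes. The 2 of 9 rising against CIH and 1 of 9 against sham stand beside 19.9% and 11.3% of all genes, and the 1 of 9 falling against sham beside 5.51%, so these counts are near those of all genes. Pdlim3, a PDZ and LIM domain protein that binds alpha-actinin (ENSMUSG00000031636, chr8:45885461-45919548, plus strand, GRCm38), had 14.9, 13.4 and 18.3 FPKM in MI+CIH, 11.8, 12.5 and 14.6 in MI, 5.65, 7.33 and 7.24 in CIH and 8.60, 11.1 and 6.70 in sham. Every library of both infarcted groups lay above every CIH and sham library. The log2 difference was 1.14 (SE 0.19, adjusted p = 0.00254) in MI+CIH against CIH, 0.80 (SE 0.19, adjusted p = 0.0162) against sham and 0.55 (SE 0.19, adjusted p = 0.164) in MI against sham. Synpo2l, an actin-binding Z-disc protein of the synaptopodin family, had 81.2, 44.0 and 58.8 FPKM in MI+CIH, 58.8, 69.1 and 58.0 in MI, 39.1, 37.9 and 27.0 in CIH and 45.2, 47.1 and 40 in sham. The MI+CIH libraries lay above CIH and overlapped sham and MI, with log2 changes of 0.79 (SE 0.22, adjusted p = 0.0202) against CIH and 0.43 (SE 0.22, adjusted p = 0.191) against sham.

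Ldb3, also called Cypher or ZASP, stabilises the Z-disc during contraction and had 95.5, 85.4 and 76.5 FPKM in MI+CIH, 112, 131 and 106 in MI, 135, 117 and 102 in CIH and 165, 155 and 129 in sham. No MI+CIH library reached any library of the other groups. The change on the log2 scale was -0.80 (SE 0.17, adjusted p = 0.0106) in MI+CIH against sham, -0.45 (SE 0.17, adjusted p = 0.0618) against CIH and -0.35 (SE 0.17, adjusted p = 0.439) in CIH against sham. Flnc, filamin C, crosslinks actin at the Z-disc and had 60.3, 45.2 and 39.9 FPKM in MI+CIH, 78.7, 82.5 and 59.0 in MI, 50.9, 47.4 and 44.8 in CIH and 54.1, 50.4 and 55.5 in sham. MI and MI+CIH overlapped, and MI lay above sham. It had one of the 3 smallest p in MI+CIH against MI, -0.60 (SE 0.18, adjusted p = 0.109).

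The other Z-disc genes, Actn2 (alpha-actinin), Nebl (nebulette), Myoz2 (which binds calcineurin), Mypn (myopalladin) and Pdlim5, passed in no comparison. Their log2 changes were -0.35 to -0.02 in MI+CIH against CIH. Relative to Actn2 in the same library, the log2 ratio of Pdlim3 was -5.26 to -4.65 in MI+CIH, -5.58 to -5.19 in MI hearts, -6.67 to -6.35 in CIH hearts and -6.46 to -5.74 in sham hearts. For Synpo2l it was -3.55 to -2.64 in MI+CIH, -3.26 to -3.11 in MI hearts, -4.72 to -3.88 in CIH hearts and -3.89 to -3.66 in sham hearts. Both ratios were higher in every MI+CIH and MI library than in every CIH and sham library. With MI+CIH 3 left out, the changes against CIH were 1.02 (adjusted p = 0.00952) for Pdlim3 and 0.80 (adjusted p = 0.0507) for Synpo2l, and against sham 0.68 (adjusted p = 0.0609) for Pdlim3 and -0.72 (adjusted p = 0.0379) for Ldb3. With median-of-ratios scaling Synpo2l changed by 0.58 (limma adjusted p = 0.0925) against CIH. Of the 22 settings, the call against CIH was lost in 0 for Pdlim3 and 7 for Synpo2l, and that against sham in 5 for Pdlim3 and 3 for Ldb3.

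**Figure D3:**
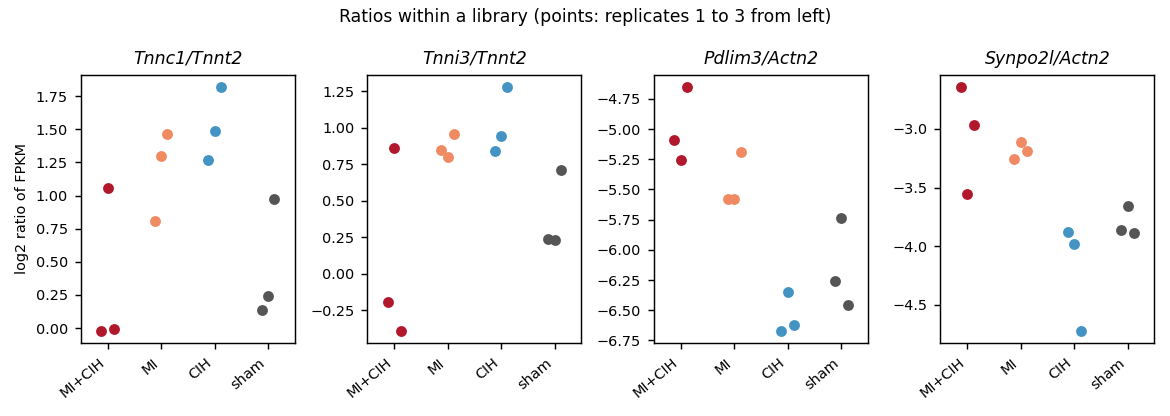
Log2 ratios of FPKM of 2 genes within each library, groups from left MI+CIH, MI, CIH and sham. The ratio of Tnnc1 to Tnnt2 is higher in all CIH libraries than in all MI+CIH and sham libraries. That of Tnni3 to Tnnt2 is higher in all CIH libraries than in 2 of the 3 MI+CIH libraries and all sham libraries. The ratios of Pdlim3 and Synpo2l to Actn2 are higher in all MI+CIH and MI libraries than in CIH and sham.

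Around the sarcomere, the chaperone of desmin was lower in MI+CIH hearts and desmin passed in no comparison. Cryab, alpha-B crystallin, protects desmin and titin from misfolding and had 279, 337 and 198 FPKM in MI+CIH, 368, 411 and 372 in MI, 373, 503 and 413 in CIH and 472, 423 and 467 in sham. The 3 MI+CIH libraries were the lowest of the 12. Its log2 change was -0.68 (SE 0.20, adjusted p = 0.0288) in MI+CIH against CIH and -0.77 (SE 0.20, adjusted p = 0.0262) against sham. Des, the intermediate filament that ties Z-discs together, had a change of -0.20 (95% interval -0.56 to 0.17, adjusted p = 0.4) against CIH. Of the exon bases of Cryab, 17.0% overlap Hspb2 on the other strand, which leaves its value uncertain. Leaving out MI+CIH 3, the changes of Cryab were -0.48 (adjusted p = 0.0899) against CIH and -0.57 (adjusted p = 0.0788) against sham, and the calls were lost in 6 and 7 of the 22 settings.

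All 3 genes of assembly and myosin regulation fell in MI+CIH against CIH hearts, and 2 of them, Smyd1 and Mylk3, against sham. Beside them 8.26% and 5.51% of all genes fell. Unc45b, a chaperone that folds the myosin head, had 27.1, 38.8 and 18.7 FPKM in MI+CIH, 48.5, 37.8 and 36.1 in MI, 45.0, 56.0 and 59.6 in CIH and 45.9, 41.6 and 47.5 in sham. Its MI+CIH libraries lay below CIH and sham and overlapped MI, and its log2 change was -0.96 (SE 0.23, adjusted p = 0.0112) against CIH. Smyd1, a muscle methyltransferase needed for sarcomere assembly, had 53.9, 75.2 and 36.3 FPKM in MI+CIH, 91.2, 90.9 and 92.6 in MI, 92.3, 80.1 and 77.6 in CIH and 84.3, 82.9 and 98.9 in sham. All 3 MI+CIH libraries lay below all 9 others. The fitted log2 change was -0.65 (SE 0.22, adjusted p = 0.045) against CIH, -0.74 (SE 0.22, adjusted p = 0.0395) against sham and -0.79 (SE 0.22, adjusted p = 0.0948) against MI, the smallest p of the 38 in the last comparison.

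Mylk3, the cardiac kinase of the myosin regulatory light chain, had 96.7, 155 and 114 FPKM in MI+CIH, 166, 143 and 138 in MI, 201, 224 and 280 in CIH and 225, 249 and 162 in sham. Its MI+CIH libraries lay below CIH and sham and overlapped MI. The log2 change was -0.96 (SE 0.22, adjusted p = 0.00967) in MI+CIH against CIH and -0.80 (SE 0.22, adjusted p = 0.0309) against sham. Without MI+CIH 3, the changes against CIH were -0.70 (adjusted p = 0.0354) for Unc45b, -0.38 (adjusted p = 0.142) for Smyd1 and -0.92 (adjusted p = 0.0322) for Mylk3. Against sham they were -0.47 (adjusted p = 0.113) for Smyd1 and -0.77 (adjusted p = 0.0878) for Mylk3. Among the 22 settings, Smyd1 lost its call in 17 against CIH and 15 against sham, Mylk3 in 1 and 7, and Unc45b, against CIH, in 2. Each of these calls was lost in the fit of the 2 groups alone.

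Among 4 ubiquitin ligase genes, only Trim55 fell in MI+CIH hearts, against CIH and against sham, beside 8.26% and 5.51% of all genes. Trim55, also called MURF2, a ring-finger protein of the M-band, had 20.6, 21.7 and 12.5 FPKM in MI+CIH, 26.4, 29.7 and 27.9 in MI, 34.4, 27.1 and 26.7 in CIH and 28.1, 30.7 and 36.0 in sham. No MI+CIH library reached any library of the other groups. Its log2 change was -0.70 (SE 0.20, adjusted p = 0.0232) in MI+CIH against CIH, -0.81 (SE 0.20, adjusted p = 0.0202) against sham and -0.64 (SE 0.20, adjusted p = 0.125) against MI. Trim54, also called MURF3, had 92.9, 83.8 and 104 FPKM in MI+CIH, 74.4, 86.3 and 66.5 in MI, 109, 114 and 152 in CIH and 165, 143 and 105 in sham. All MI and MI+CIH libraries lay below all CIH and sham libraries, and the change in MI against sham was -0.84 (SE 0.20, adjusted p = 0.0585). Of the exon bases of Trim54, 26.6% overlap Gm15469 on the other strand.

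Trim63 (MURF1) and Fbxo32 (atrogin-1), the ligases known for muscle wasting, are given here after their values were seen. Trim63 had 54.6, 63.8 and 89.3 FPKM in MI+CIH, 61.7, 74.6 and 55.2 in MI, 65.7, 75.3 and 91.1 in CIH and 54.1, 55.4 and 70.5 in sham. The groups overlapped, with log2 changes of -0.18 (95% interval -0.63 to 0.28, adjusted p = 0.556) in MI+CIH against CIH and 0.18 (95% interval -0.27 to 0.64, adjusted p = 0.583) against sham. For Fbxo32 they were -0.24 (95% interval -0.65 to 0.17, adjusted p = 0.366) and -0.02 (95% interval -0.43 to 0.39, adjusted p = 0.958). With MI+CIH 3 left out, Trim55 changed by -0.46 (adjusted p = 0.065) against CIH and -0.56 (adjusted p = 0.0517) against sham, and each call was lost in 6 of the 22 settings.

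Of 3 energy and oxygen supply genes, 2 fell in MI+CIH against CIH (Ckm and Mb), beside 8.26% of all genes. Ckm, the muscle creatine kinase that buffers ATP at the filaments, had 172, 287 and 142 FPKM in MI+CIH, 280, 343 and 284 in MI, 339, 387 and 442 in CIH and 327, 291 and 318 in sham. Its MI+CIH libraries lay below CIH and sham and overlapped MI, and its log2 change was -1.01 (SE 0.24, adjusted p = 0.0102) against CIH. Mb, myoglobin, which stores oxygen, had the highest level of the 38 genes, at 7347, 11549 and 4791 FPKM in MI+CIH, 10212, 10738 and 10151 in MI, 12010, 16464 and 18566 in CIH and 12046, 11118 and 13108 in sham. Its MI+CIH libraries lay below CIH only, with a change of -1.06 (SE 0.32, adjusted p = 0.0288).

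Ckmt2, the mitochondrial creatine kinase and the remaining gene of this role, did not pass in MI+CIH hearts, with -0.81 (SE 0.30, adjusted p = 0.0613) against CIH and -0.87 (SE 0.30, adjusted p = 0.0638) against sham. For Ckm 15.5% of exon bases overlap A930016O22Rik, and for Mb 27.6% overlap Gm49540, on the other strands. Leaving out MI+CIH 3, the changes against CIH were -0.80 (adjusted p = 0.036) for Ckm and -0.74 (adjusted p = 0.0848) for Mb, and the calls were lost in 3 and 7 of the 22 settings.

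Rbm20 fell in hearts with infarction, alone and with hypoxia. It encodes the RNA-binding protein that keeps titin exons out of the mature message (ENSMUSG00000043639, chr19:53677306-53867080, plus strand, GRCm38). Its levels were 37.8, 35.5 and 30.1 FPKM in MI+CIH, 42.6, 42.7 and 38.3 in MI, 57.9, 47.5 and 50.6 in CIH and 63.8, 61.3 and 61.0 in sham. The ranges of the 4 groups did not overlap: MI+CIH was lowest, then MI, then CIH, with sham highest. The log2 change was -0.84 (SE 0.13, adjusted p = 0.00416) in MI+CIH against sham, -0.59 (SE 0.13, adjusted p = 0.00826) in MI+CIH against CIH and -0.59 (SE 0.13, adjusted p = 0.0458) in MI against sham. In MI+CIH against MI it was -0.26 (95% interval -0.54 to 0.03, adjusted p = 0.31) and in CIH against sham -0.26 (95% interval -0.54 to 0.03, adjusted p = 0.467), and neither passed. Without MI+CIH 3, the change was -0.75 (adjusted p = 0.0131) against sham, -0.50 (adjusted p = 0.0291) against CIH and, for MI against sham, -0.59 (adjusted p = 0.0281). The call in MI against sham was lost in 14 of the 22 settings, that in MI+CIH against CIH in 1 and that in MI+CIH against sham in 0. In MI+CIH against CIH the setting was the fit of the 2 groups alone.

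**Figure D4:**
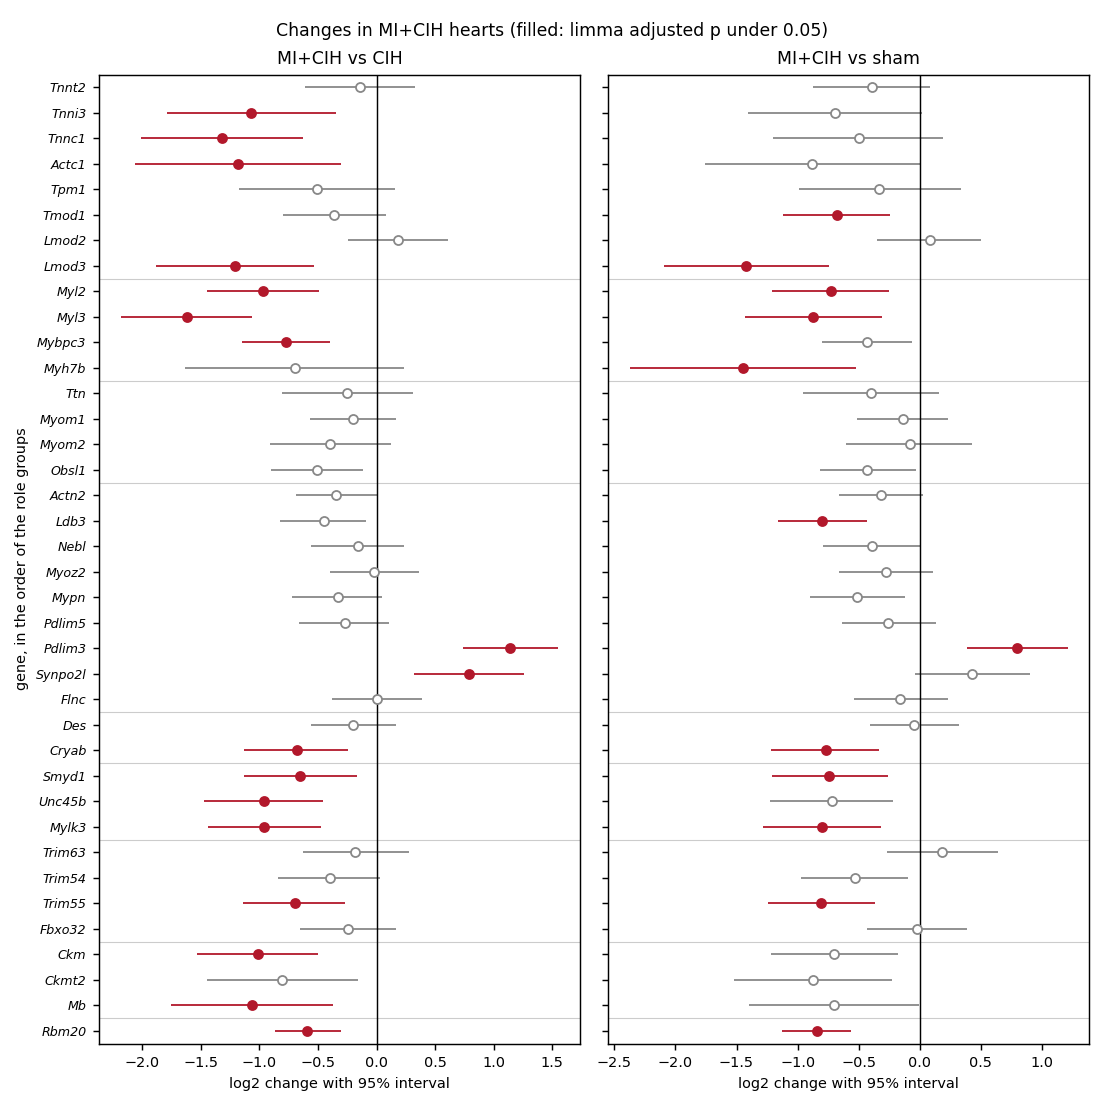
Log2 change and 95% interval of each of the 38 genes in MI+CIH against CIH (left) and against sham (right), filled where the limma adjusted p was under 0.05. Filled points lie left of 0 except Pdlim3 in both panels and Synpo2l on the left.

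The changes differed with gene length. Across the 38 genes, Spearman's rho between annotated exon length and log2 change in MI+CIH against CIH was 0.54, against 0.02 over 15471 genes with a length. In the shorter 19 genes the median change was -0.77 and 11 passed, and in the longer 19 it was -0.33 and 6 passed. Divided at the same 4223 bases, the shorter and the longer of all genes had medians of 0.18 and 0.22. Against sham rho was 0.38, with medians of -0.69 and -0.39 in the short and long genes. For CIH against sham rho was -0.37, with medians of 0.15 and -0.15. The genes share the same 12 libraries and are not independent, so no p is given, and the part of length in the changes was not tested.

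**Figure D5:**
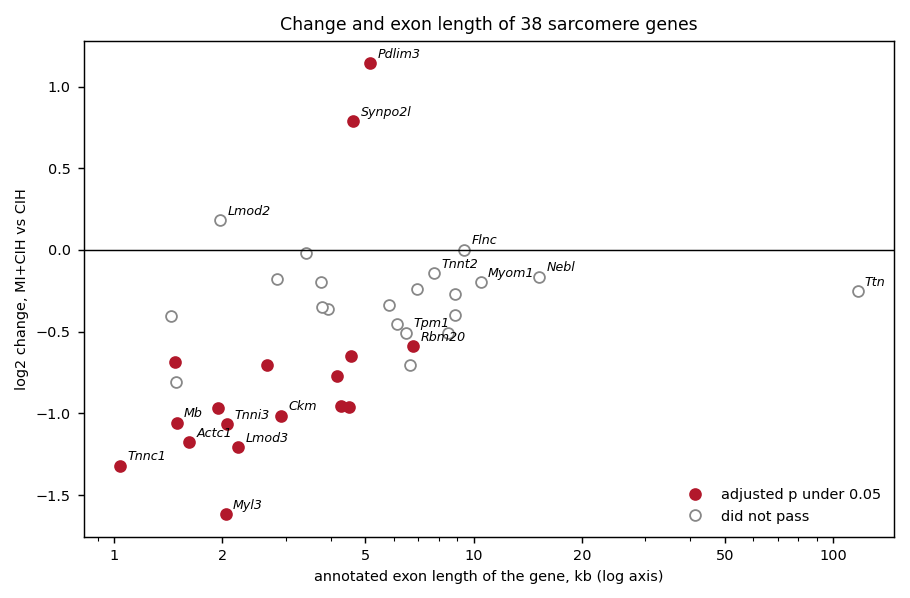
Log2 change in MI+CIH against CIH (vertical) by annotated exon length in kb (horizontal, log axis) for the 38 genes, filled where the limma adjusted p was under 0.05. The short genes Myl3 and Tnnc1 lie lowest, at -1.62 and -1.32, and the long genes Nebl and Ttn lie at -0.16 and -0.25.

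Other sarcomere and muscle genes, a list of 42 of which 41 were tested, moved in both directions. In MI+CIH against CIH 7 rose and 9 fell, beside 19.9% and 8.26% of all genes, with a median of -0.17. Those with the smallest p were Pdlim7, a PDZ and LIM protein of the Z-disc (0.93, SE 0.13, adjusted p = 0.00184), Klhl31 (-0.89, SE 0.19, adjusted p = 0.00659), the small heat shock protein gene Hspb8 (-0.95, SE 0.20, adjusted p = 0.00674) and Ankrd1, a titin-binding stress-response gene (1.17, SE 0.25, adjusted p = 0.00676). Against sham 4 rose and 7 fell, beside 11.3% and 5.51% of all genes. They were led by Speg, a kinase of heart muscle (-0.98, SE 0.19, adjusted p = 0.00832), Pdlim7 (0.64, SE 0.13, adjusted p = 0.0112), Fhod3, a formin that assembles actin (-0.73, SE 0.16, adjusted p = 0.0115), and Hspb8 (-0.93, SE 0.20, adjusted p = 0.0124). In MI against sham Pdlim7 rose (0.64, SE 0.13, adjusted p = 0.0379) and Tcap, which caps titin at the Z-disc, fell (-2.07, SE 0.36, adjusted p = 0.0205). In that comparison 1.96% of all genes passed. The 304 calls became 30, 27, 30 and 22 without sham 1, sham 2, MI 2 and MI 3. Whether Pdlim7, Tcap and, below, Rbfox1 and Ppargc1a kept their MI against sham calls there is not shown. In MI+CIH against MI Myot, myotilin of the Z-disc, fell (-0.90, SE 0.16, adjusted p = 0.0495). No gene of the table passed in that comparison with a pseudocount of 0.1, in a fit of its 2 groups alone, or without sham 1, MI 1, MI 2, CIH 2, CIH 3 or MI+CIH 3, so the Myot call was lost in each.

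Of 24 protein turnover genes tested, 26 being listed, 6 passed in MI+CIH against CIH (2 rose and 4 fell) and 2 against sham (both rose), no larger a share than the 28.2% and 16.8% of all genes. Foxo1, a transcription factor of atrophy genes, changed by 0.67 (SE 0.15, adjusted p = 0.00886) against CIH and 0.60 (SE 0.15, adjusted p = 0.0218) against sham. Ctsl, the lysosomal protease cathepsin L, changed by 0.84 (SE 0.22, adjusted p = 0.0179) and 1.1 (SE 0.22, adjusted p = 0.0097). Fbxo21 (-0.53, SE 0.15, adjusted p = 0.0215) and Foxo4 (-0.44, SE 0.13, adjusted p = 0.027) fell against CIH. None of the 24 passed by limma in the other comparisons.

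Among splicing factors of muscle, 12 tested of 14 listed, Rbfox1 fell in 3 comparisons. The change was -1.04 (SE 0.23, adjusted p = 0.00847) in MI+CIH against CIH, -1.46 (SE 0.23, adjusted p = 0.00459) against sham and -1.09 (SE 0.23, adjusted p = 0.0401) in MI against sham. Against CIH 3 of the 12 fell and 2 rose in MI+CIH, beside 8.26% and 19.9% of all genes. Among them were Srsf10 (0.58, SE 0.14, adjusted p = 0.0103), Ptbp1, a repressor of muscle exons (0.74, SE 0.18, adjusted p = 0.0118), and Rbm38 (-0.71, SE 0.20, adjusted p = 0.0225). Against sham 3 fell and none rose, beside 5.51% and 11.3% of all genes, with Rbm38 at -1.0 (SE 0.20, adjusted p = 0.00951) and Rbm24 at -0.80 (SE 0.21, adjusted p = 0.0231).

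Of 18 transcription factor genes of heart muscle, 7 fell and none rose in MI+CIH against CIH, beside 8.26% of all genes falling and 19.9% rising. Against sham 6 fell and none rose, beside 5.51% and 11.3%. Nkx2-5, a founding factor of the heart, changed by -0.72 (SE 0.15, adjusted p = 0.00659) against CIH and -1.13 (SE 0.15, adjusted p = 0.00236) against sham. Hopx (-1.35, SE 0.27, adjusted p = 0.00513), Esrra (-1.18, SE 0.25, adjusted p = 0.00661) and Esrrb (-0.80, SE 0.20, adjusted p = 0.0144) fell against CIH. Esrrg (-0.88, SE 0.19, adjusted p = 0.0126), Gata4 (-0.66, SE 0.15, adjusted p = 0.014) and Ppargc1b (-1.03, SE 0.23, adjusted p = 0.0148) fell against sham. Ppargc1a, a coactivator of mitochondrial genes, rose in MI against sham (0.81, SE 0.18, adjusted p = 0.0446) and fell in MI+CIH against MI (-1.15, SE 0.18, adjusted p = 0.049), a call lost in the same settings as that of Myot named above.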

How the data were processed

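The authors deposited 1 table with a value per Ensembl gene and library for 26781 genes, read here as FPKM from the values, with column sums of 289085.3 to 345539.8. Tools listed in the submitters' processing notes are DESeq 1.8.3, HISAT and featureCounts 1.5.0-p3, with mm10 as a build and no roles stated, and the strand setting is not given in the sources used here. Libraries were made with a kit for small RNA, per the labels' protocols, though mRNA is named in the design text. Values of 22795 of 25404 genes (89.7%), and of 33 of the 38 genes described, were whole multiples, within 0.1 read, of the FPKM that 1 read is worth at GENCODE M21 exon lengths, which gave the library totals; they were not used for a count test.

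Genes of at least 0.5 FPKM in at least 3 of 12 libraries (15503) were tested on log2(FPKM + 0.5), which understates changes of low genes, with limma 3.58.1 (trend, robust, statmod 1.5.0, R 4.3.3), all 12 libraries sharing 1 spread estimate, in 6 two-sided comparisons. P-values were Benjamini-Hochberg adjusted over all genes tested, with a threshold of 0.05. The code was tested on simulated data.

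Symbols came from a reference table of mouse Ensembl gene names and matched 26691 genes, and promoter windows came from RefSeq on GRCm38.p6. Every gene of the 38 that passed in at least 1 comparison is given by library, with the 3 smallest p where fewer than 3 passed and the 1 or 2 most abundant genes of a role with none; up to 4 genes are named per other list and comparison. The 38 genes, the gene and marker lists and the tests were chosen with earlier results of these data known. Alternatives covered the pseudocount, filters, scaling, fits of the compared groups only, a replicate term and left-out libraries.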

Additional observations from a re-analysis of the deposited data

How the results depend on the processing

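Of 30 calls among the 38 genes, all 30 kept their sign under 22 alternatives, none reversed, and 3 passed under all of them, which were Myl3 and Pdlim3 in MI+CIH against CIH and Rbm20 in MI+CIH against sham. The 17 calls of MI+CIH against CIH became 7 without sham 2 and MI+CIH 3, 2 in a fit of the 2 groups alone, and 8 without MI 1 and MI+CIH 3, a pair chosen after seeing the data; leaving out single libraries gave 10 to 19. The 12 calls of MI+CIH against sham became 7 with no filter on low values, 3 without sham 2 and MI+CIH 3, 2 in a fit of the 2 groups alone, and 2 without MI 1 and MI+CIH 3; leaving out single libraries gave 3 to 20. The 1 call of MI against sham became 0 with no filter, 2 with a mean of at least 1 FPKM, 0 with median-of-ratios scaling and 5 in a fit of the 2 groups alone; leaving out single libraries gave 0 to 3. Leaving out single libraries gave 0 to 7 calls in MI+CIH against MI and 0 to 7 in the interaction. CIH against sham had 0 throughout. In the fits of 2 groups alone, 1690 of all genes passed in MI+CIH against CIH and 1335 in MI+CIH against sham. The 2 of 38 genes passing in each was a smaller share than that of all genes. The larger share of calls among the 38 in the main fit was thus not seen in these fits. The cause of these changes in the counts was not tested.

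A fit with the replicate number as a block gave 0 calls among the 38 for MI against sham, and 8 in place of 12 for MI+CIH against sham. Deviations of same-numbered libraries from their group means correlated at -0.15 to 0.13 over all genes tested. The labels give no pairing or batch, and whether same-numbered libraries belong together was not tested. Over all genes, the alternatives gave 22 to 1145 calls in place of 304 for MI against sham, 0 to 124 in place of 1 for CIH against sham, 0 to 993 in place of 51 for MI+CIH against MI, 1690 to 4664 in place of 4368 for MI+CIH against CIH, 513 to 2972 in place of 2603 for MI+CIH against sham, and 0 to 976 in place of 12 for the interaction. The exclusion of genes of mitochondrial DNA and Rpph1, also chosen after seeing the data, gave 15 and 13 calls against CIH and sham. With 3 libraries a group, the median 95% interval of a difference between groups was 0.45 (log2) to either side.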

Other observations

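The values here were chosen after they were seen. Myh7 and Myh6, myosin heavy chain genes outside the 38, stood apart in 1 library. Myh7, the slow heavy chain of the fetal heart in mice, was at 355, 138 and 2346 FPKM in MI+CIH libraries 1 to 3, 151 to 266 in MI hearts, 132 to 300 in CIH hearts and 62.5 to 197 in sham hearts. Myh6, the fast heavy chain of the adult mouse heart, was at 4386, 4071 and 1211 FPKM in MI+CIH libraries 1 to 3, 3482 to 5157 in MI hearts, 4258 to 5365 in CIH hearts and 4637 to 6601 in sham hearts. The third MI+CIH library was the highest of 12 for Myh7 and the lowest for Myh6.

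Acta1, the skeletal actin, was at 886, 464 and 173 FPKM in MI+CIH libraries 1 to 3, 234 to 614 in MI hearts, 76.6 to 187 in CIH hearts and 114 to 312 in sham hearts. Here the third MI+CIH library was the lowest of its group, and MI+CIH overlapped CIH and sham. Nexn, a Z-disc protein, was at 253, 100 and 76.5 FPKM in MI+CIH, against at most 149 in any library of the other groups. Tcap was at 920, 1089 and 997 FPKM in MI+CIH, 618, 490 and 430 in MI, 1113, 1126 and 3084 in CIH and 2648, 2231 and 1643 in sham, with both infarcted groups below sham.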
